A study of Bos taurus with 2 samples.

Results

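The genes described here encode the machinery that buds vesicles into endosomes: the complexes ESCRT-0, ESCRT-I, ESCRT-II and ESCRT-III (endosomal sorting complexes required for transport), the VPS4 ATPase, ALIX, the syndecan-syntenin pair, 2 neutral sphingomyelinases and ARRDC1. They were chosen by gene symbol from a list of 36. Of these, 35 were on the array, among 15821 named genes, and they had 85 of its 43652 probes, with 1 to 4 probes a gene. NEDD4, a ubiquitin ligase, had no probe of that name. The list was drawn up by known function, but it was chosen with earlier results of these data known.

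The study set the RNA of vesicles pelleted from bovine milk whey against the RNA left in the liquid. The labels call the separation ultracentrifugation and give its force as 10000 g, and what else such a spin pellets was not analysed here. The exosome group was what whey left at the bottom after 90 min, washed 2 times in PBS, and the supernatant group was the whey above it. Both came from raw Holstein milk with no treatment, RNA of 3 milk samples was mixed in equal parts, and 100 ng of the mixture was labelled with the dye Cy3. Each mixture went onto 1 Agilent array, so there are 2 arrays, 1 array per fraction and no replicates. No difference carries a test, since each compares 1 array with 1 array, and the number of arrays limits the precision. Fewer vesicles with a transcript and less transcript per vesicle cannot be told apart.

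ESCRT proteins act in order on the endosome membrane. ESCRT-0 and ESCRT-I gather ubiquitin-tagged cargo, ESCRT-II links them to ESCRT-III, and ESCRT-III forms the spiral polymer that pinches the vesicle off, after which VPS4 takes the polymer apart. When such an endosome fuses with the cell surface the inner vesicles leave as exosomes. ALIX, syntenin and syndecan form a parallel route into these vesicles, neutral sphingomyelinase makes the ceramide of an ESCRT-independent one, and ARRDC1 recruits ESCRT-I to buds at the cell surface. The proteins TSG101, ALIX and syntenin are widely used as exosome markers, and milk vesicles come in good part from mammary epithelium. The arrays measured RNA, not these proteins.

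The probes that the results turn on are given as the array's 60-base oligos or 30-base stretches of them, 5′ to 3′, with their position in the array's build, HGSC Btau_3.1. No gene annotation of that build was used here, so exon and untranslated region status was not analysed. The first set is probes that lie upstream of the last probe of the same gene, shown whole because their levels can be set beside that last probe. TSG101 has probes at chr29:27478135-27484830 and chr29:27507024-27508534, CHMP2A at chr18:66098986-66099158, SMPD2 at chr9:42551094-42551385 and ARRDC1 at chr11:109949743-109949966. CHMP2A and SMPD2 lie on the minus strand and the others on the plus strand. All of them span more than 80 bases of the genome, so their 60 bases align in pieces.
TSG101 base 365: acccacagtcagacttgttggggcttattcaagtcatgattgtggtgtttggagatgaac
TSG101 base 1074: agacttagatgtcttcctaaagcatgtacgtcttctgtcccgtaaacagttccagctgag
CHMP2A base 656: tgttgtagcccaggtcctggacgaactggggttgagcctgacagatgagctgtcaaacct
SMPD2 base 785: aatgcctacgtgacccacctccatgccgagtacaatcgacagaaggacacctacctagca
ARRDC1 base 482: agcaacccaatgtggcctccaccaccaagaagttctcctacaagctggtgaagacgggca

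PDCD6IP, the gene of ALIX, is shown because its probes divided between detected and not detected. Its probes at chr22:8084645-8084704 and chr22:8115139-8116319 were not detected, and the one at chr22:8123459-8123518 was. All are on the plus strand.
PDCD6IP base 772: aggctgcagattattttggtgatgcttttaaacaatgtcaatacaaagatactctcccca
PDCD6IP base 2130: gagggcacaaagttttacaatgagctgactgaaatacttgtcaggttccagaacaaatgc
PDCD6IP base 2598: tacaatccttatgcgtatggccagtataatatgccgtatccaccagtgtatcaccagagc

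The last set is 30-base stretches of probes near the end of a transcript, where capitals mark AATAAA, the canonical polyadenylation hexamer, followed by the CHMP1B probe, where capitals mark 20 bases also held by probes of other genes, and the SMPD3 probe that was brighter in the supernatant. The HGS probe is at chr19:52612811-52612870 (minus strand), VPS28 at chr14:282665-282724 (plus), CHMP2A at chr18:66098792-66098851 (minus), VPS37B at chr17:55334172-55334231 (plus), ARRDC1 at chr11:109951166-109951225 (plus) and SMPD2 at chr9:42549777-42549836 (minus). The CHMP1B probe is at chr24:44306941-44307001 (plus) and the SMPD3 probe at chr18:34755560-34755619 (minus).
HGS base 2872: gagtagatggaatggaacagcgatAATAAA
VPS28 base 1020: ccctcttcccAATAAAgctgttttctgacc
CHMP2A base 850: ttttcattgtaccttctgtAATAAAagagg
VPS37B base 2533: acatcctttttAATAAAtagagaattgtta
ARRDC1 base 1506: gagagacgcggtgtaAATAAAgtgattcat
SMPD2 base 1608: aggagagagagagagctgaggaacAATAAA
CHMP1B base 1057: tgAAAGTGAAAGTGAAGTCGCTcagtcatg
SMPD3 base 170: aaggaaccatgactggctggctgacacaca

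Detection means the scanner software's call that a spot is well above background, and 1 such probe made its gene detected. Signals with this call started at 11.3 in exosome and 9.04 in supernatant. The exosome array was much the brighter, with 25524 of all 43652 probes detected (58.5%), against 5731 (13.1%) on the supernatant array. Over the 3373 genes measured on both arrays by the same probe, the median gene had 11.3-fold more unscaled exosome signal (3.50 on the log2 scale), and 8 spike-in probes were brighter there by a median of 2.27. Differences are therefore exosome minus supernatant on the log2 scale, given relative to that median gene, with the unscaled value beside it. Scaling each array to its 75th percentile would lower every unscaled value by 5.56. On the supernatant array that percentile was 5.24, under the lowest detected signal of 9.04, against 248 on the exosome array. This scale therefore sets a detected level in exosome against an undetected level in supernatant. The 9 probes printed on 4 spots and detected on both arrays varied between spots by an SD of 0.18 in this difference.

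The markers of the labelled source were present. All 6 mammary epithelium markers (CSN2, CSN3, LALBA, KRT18, KRT8 and EPCAM) were detected in exosome and 4 of them also in supernatant, where their highest signal was 1117 (LALBA). These 4 were 1.67 to 7.72 above the median gene. Of 6 leukocyte markers, CD3E and CSF3R were detected on neither array, and the other 4 were detected on both. LCP1 was 1.27 above the median gene, and CD68, PTPRC and CD14 were below it by differences of -1.20, -2.25 and -2.42. Summed over each gene's brightest probe, the epithelium markers had 833025 in exosome and 1768 in supernatant, and the leukocyte markers 1928 in exosome and 779 in supernatant. The part of leukocyte or epithelial RNA in the results below was not tested.

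Transcripts of the budding machinery were detected in the exosome pellet almost throughout the list and, by the call used here, in the supernatant for a minority. Of the 35 genes, 32 were detected in exosome, where 69.2% of all named genes were. In supernatant 13 were detected, where 22.8% of all named genes were. The same 13 were detected on both arrays (21.7% of all named genes), 19 in exosome only (47.5%) and 3 on neither (29.8%). No member was detected in the supernatant alone. By probes, 75 of 85 were detected in exosome (88.2%) and 19 in supernatant (22.4%). The supernatant count depends on the call: it was 25 of the 35 with the scanner software's weaker detection flag and 4 with a stricter filter. The shares of all named genes under these other calls were not computed. A gene not detected there is not shown to be absent. These counts also depend on the number of probes a gene has. Among all named genes 13.4% with 1 probe were detected in supernatant, 22.2% with 2, 30.9% with 3 and 37.4% with 4. Of the members, 1 of 7 with 1 probe was detected there, 4 of 11 with 2, 5 of 12 with 3 and 3 of 5 with 4.

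Detection by complex is given beside the shares of all named genes, 69.2% in exosome and 22.8% in supernatant. Detection in exosome and in supernatant was 3 and 2 of 3 genes for ESCRT-0, 5 and 2 of 6 for ESCRT-I, 3 and 1 of 3 for ESCRT-II, and 11 and 4 of 11 for ESCRT-III. The VPS4 ATPases with their activator VTA1 had 3 and 0 of 3, and ALIX with its partner PDCD6 had 2 and 0 of 2. The syndecan-syntenin group had 2 and 1 of 4, the sphingomyelinases 2 and 2 of 2, and ARRDC1 was detected in both. With 1 to 11 genes a group these counts describe the arrays and no difference between groups was tested. The supernatant signals were low: 15 of the 19 detected probes lay below 30, and their median of 22.9 was close to the 23.5 of all probes detected there.

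**Figure D1:**
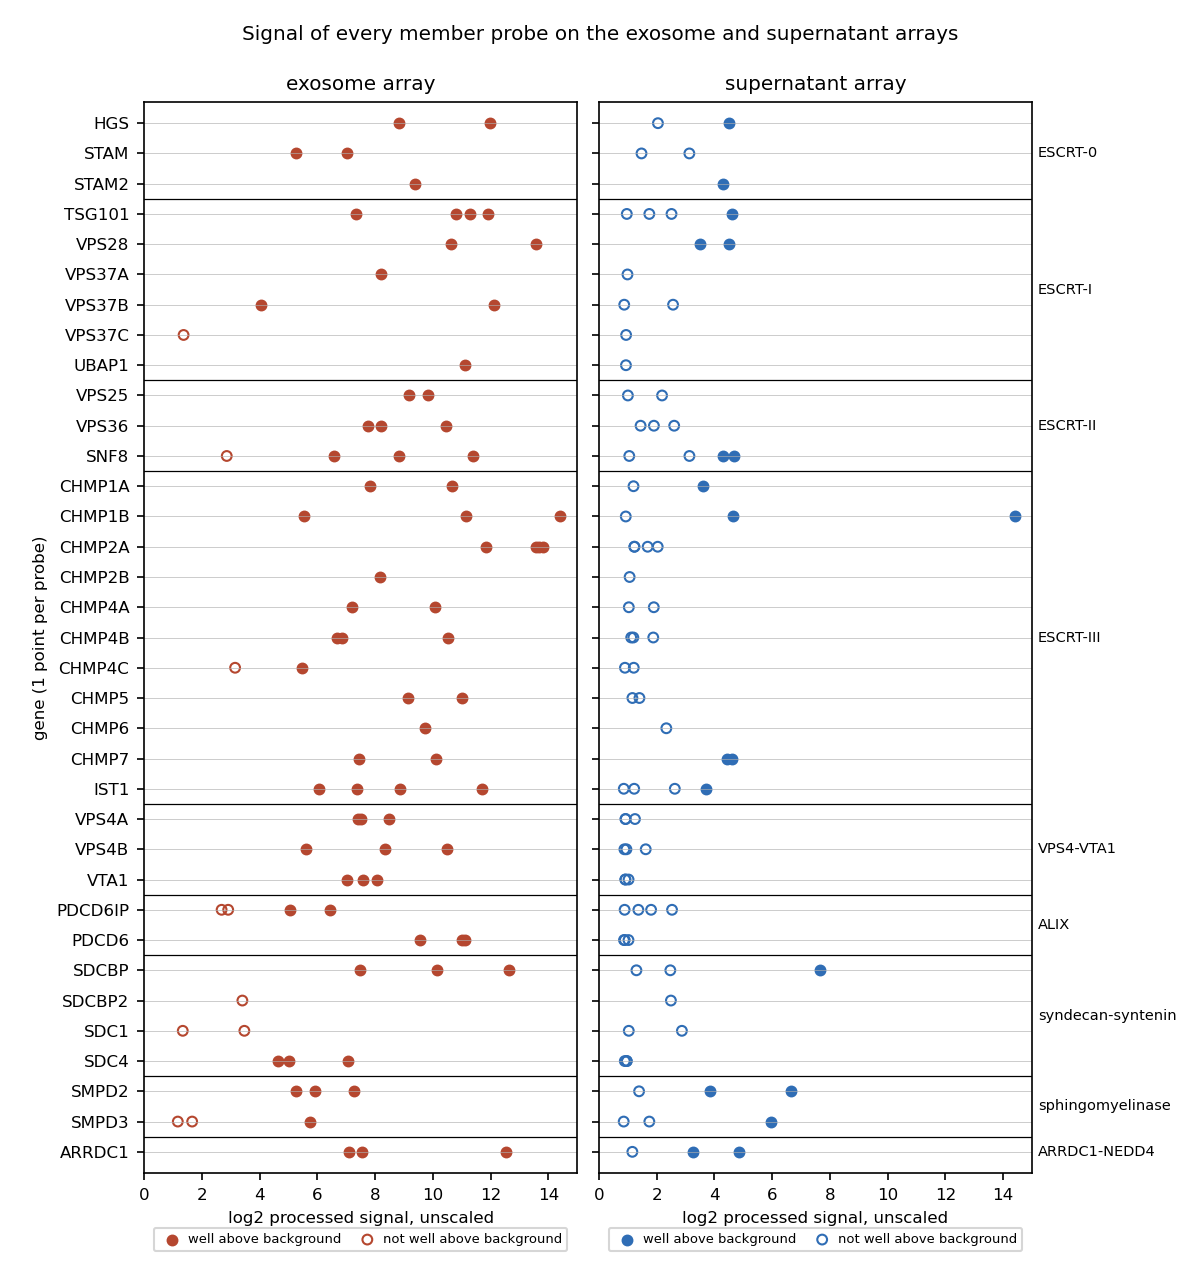
Log2 processed signal, unscaled, of each of the 85 probes on the exosome array (left) and the supernatant array (right), 1 point per probe and 1 line per gene, grouped by complex. Filled points mark the detected probes, 75 in exosome and 19 in supernatant, and the filled supernatant points cluster low except the CHMP1B probe at 21549, the SDCBP probe at 203, the SMPD2 probe at 99.9 and the SMPD3 probe at 62.2.

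ESCRT-0 gathers ubiquitinated cargo through HGS (HRS) and its STAM partners. HGS had 4031 ± 403 in exosome, against 4.13 ± 2.34 in supernatant, at its probe at base 2872 (signal ± the scanner software's error for the spot). At base 2397 it had 452 ± 45.3 in exosome and 22.9 ± 3.26 in supernatant. Only the probe at base 2397 was detected in supernatant, so the gene's difference rests on it and was 0.80 above the median gene (4.30 unscaled, -1.26 after 75th percentile scaling). The probe that was dimmer in exosome was thus the one seen in the supernatant.

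STAM2 had 674 ± 67.5 in exosome and 19.9 ± 3.15 in supernatant at its 1 probe, 1.58 above the median gene (5.08 unscaled). After 75th percentile scaling its difference turned to -0.48. STAM, the paralog of STAM2, was detected in exosome only. Its 2 probes overlap by few bases and had 38.5 and 131 in exosome, against 2.79 and 8.78 in supernatant, which makes it at least 7.87-fold brighter in exosome before scaling. This bound sets the exosome signal against the higher of the supernatant signal and the lowest detected signal there, averaged over the probes detected in exosome.

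By gene mean over the probes detected on both arrays, ESCRT-I held the 2 genes furthest to the exosome side among the 13 measured on both. Some genes detected in exosome only had bounds beyond them. With the brightest probe of each gene, ARRDC1 (4.06 above the median gene) passed TSG101 (3.68), so the order depends on the probes averaged. VPS28, the subunit that contacts ESCRT-II, had 12140 ± 1214 in exosome and 22.6 ± 2.91 in supernatant at base 1020. At its other probe, upstream, it had 1582 ± 158 in exosome and 11.3 ± 2.53 in supernatant. Its mean difference was 4.60 above the median gene (8.10 unscaled, 2.53 after 75th percentile scaling), and its probes gave 9.07 and 7.12 unscaled. Both probes were detected on both arrays, which was the case for all the probes of only 3 members, VPS28, STAM2 and CHMP7.

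TSG101, which binds the PTAP-type motifs of cargo and viral proteins, had 4 probes, all detected in exosome. They had 163, 2472, 1796 and 3856 in exosome, in transcript order, against 1.96, 3.36, 5.72 and 24.5 in supernatant. Only the last of them, at base 1358, was detected in supernatant. There TSG101 was 3.80 above the median gene (7.30 unscaled, 1.73 after 75th percentile scaling). In exosome the brightest of these probes had 23.7 times the signal of the dimmest.

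The other ESCRT-I genes were not detected in supernatant. UBAP1, an alternative ESCRT-I subunit, had 2245 in exosome and 1.92 in supernatant at its 1 probe, at least 248-fold brighter before scaling and at least 5.25-fold after 75th percentile scaling. VPS37B, one of the interchangeable VPS37 subunits, had 4405 in exosome and 1.84 in supernatant at base 2533, and 16.8 in exosome and 5.94 in supernatant at base 454. Its 2 probes differed by 263 times in exosome, and 16.8 was the lowest signal of any member probe that was detected there. VPS37A had 295 in exosome and 1.99 in supernatant. VPS37C was detected on neither array, with 2.59 ± 2.58 in exosome and 1.92 ± 1.92 in supernatant at its 1 probe, at base 342.

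ESCRT-II is the bridge between ESCRT-I and ESCRT-III. All 3 of its genes were detected in exosome, and SNF8 (VPS22) also in supernatant. SNF8 had 2663, 453, 7.29 and 94.7 in exosome, in transcript order, against 19.8, 8.80, 2.08 and 25.9 in supernatant. The third probe was detected on neither array, and the first and the last were detected on both. Those 2 probes gave unscaled differences of 7.07 and 1.87, so the mean, 0.97 above the median gene (4.47 unscaled, -1.09 after 75th percentile scaling), hides a gap of more than 5 on the log2 scale. That gap is far larger than the spread between spots, and no test was run on it. VPS25 had 584 and 914 in exosome, against 2.01 and 4.56 in supernatant, and VPS36 had 293, 214 and 1404 in exosome, against 6.10, 2.73 and 3.75 in supernatant.

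ESCRT-III subunits polymerise into the filament that cuts the neck of the vesicle. All 11 genes were detected in exosome, with 25 of their 26 probes, and 4 genes were detected in supernatant. CHMP2A, the subunit that recruits VPS4, was the brightest member apart from 1 probe of CHMP1B. Its 4 probes had 3652, 14269, 12134 and 13040 in exosome, against 2.35, 2.35, 4.11 and 3.23 in supernatant. It had the highest bound of the 19 genes detected in exosome only, at least 1054-fold before scaling and at least 22.3-fold after 75th percentile scaling. The last 3 probes overlap within 9 bases and are no independent readings. The first, on sequence that is split in the genome build had the lowest signal of the 4.

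CHMP7, which joins ESCRT-III at the nuclear envelope, had 174 and 1095 in exosome, against 21.6 and 24.4 in supernatant. It was 0.75 above the median gene (4.25 unscaled, -1.31 after 75th percentile scaling). CHMP1A had 228 ± 23.0 in exosome and 12.2 ± 2.45 in supernatant at base 858, and 1638 in exosome and 2.30 in supernatant at base 1636. Its difference, from the first of these, was 0.73 above the median gene (4.23 unscaled, -1.34 after 75th percentile scaling). IST1, a regulator of VPS4 with an ESCRT-III fold, had 66.4, 166, 469 and 3319 in exosome, in transcript order, against 6.20, 12.9, 1.82 and 2.34 in supernatant. Only the second was detected in supernatant, and it was 0.18 above the median gene (3.68 unscaled, -1.88 after 75th percentile scaling). In CHMP1A and IST1, as in HGS, the brightest exosome probe was not detected in supernatant. In 9 of the 12 members of several probes measured on both arrays it was detected there (75%), against 82.0% of 2644 such genes of the array.

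CHMP1B, a late-acting ESCRT-III subunit, held probes that contradicted each other. At base 1057 it had 21930 ± 2193 in exosome and 21549 ± 2155 in supernatant, a difference of 0.03 unscaled. At base 1762 it had 2293 in exosome and 25.1 in supernatant, a difference of 6.51. At base 187 it had 47.0 in exosome and 1.91 in supernatant. The mean over the 2 probes detected on both arrays stood at -0.23 relative to the median gene (3.27 unscaled, -2.29 after 75th percentile scaling).

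The probe at base 1057 was the brightest member probe on both arrays and the only one of 85 that shares a stretch of 20 bases with probes of other genes. It shares such stretches with 14 probes under 9 other gene names, 6 in the same orientation and 8 in the reverse one. The 6 had 3434 to 55298 in exosome and 4265 to 51587 in supernatant, with differences of -0.31 to 0.10 unscaled. The 8 had 8810 to 30075 in exosome and 6471 to 22918 in supernatant, with differences of 0.29 to 0.49. The CHMP1B probe lies inside these ranges on both arrays. Without it, an alternative chosen after seeing the data, CHMP1B stood 3.01 above the median gene, and the median of the 13 genes was 0.97 in place of 0.80. Whether the signal comes from CHMP1B transcript was not tested.

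**Figure D2:**
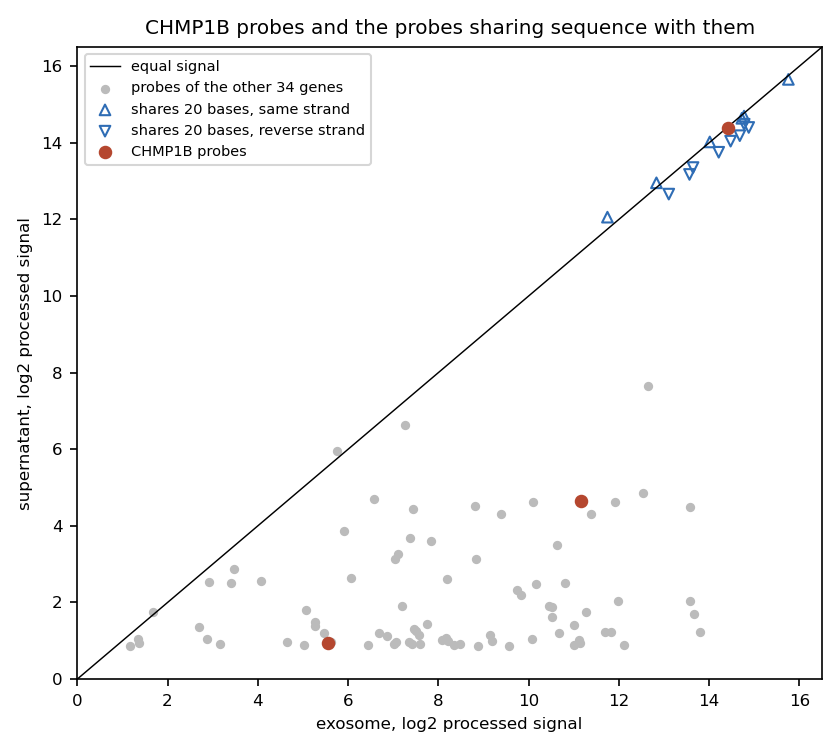
Log2 processed signal in exosome (horizontal axis) against supernatant (vertical axis), both unscaled, for the 3 CHMP1B probes (large points), the other member probes (small grey points) and the 14 probes of other genes that share 20 bases with the CHMP1B probe at base 1057 (triangles). That probe, at 21930 in exosome and 21549 in supernatant, lies on the line of equal signal among the triangles, and the other 2 CHMP1B probes lie far below the line among the grey points.

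The remaining 6 ESCRT-III genes were detected in exosome only. CHMP5 had 566 and 2064 in exosome, against 2.24 and 2.65 in supernatant, at least 120-fold brighter before scaling and 2.53-fold after it. CHMP6, the myristoylated subunit that starts the filament, had 856 in exosome and 5.05 in supernatant, at least 94.7-fold before scaling and just past 2-fold after it. CHMP4B, the main filament-forming subunit, had 116, 103 and 1464 in exosome, against 2.18, 2.29 and 3.69 in supernatant. Its paralog CHMP4A had 146 and 1077 in exosome, against 3.74 and 2.05 in supernatant. CHMP4C, the paralog that acts in the abscission checkpoint of cell division, was the dimmest, with 8.90 and 43.9 in exosome, against 1.87 and 2.31 in supernatant. Only the second probe was detected in exosome, and the bound of at least 4.86-fold was the lowest of the 19. CHMP2B had 289 in exosome and 2.09 in supernatant.

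VPS4A and VPS4B, the ATPases that recycle ESCRT-III, and VTA1, which activates them, had 9 probes that were all detected in exosome and all undetected in supernatant. VPS4A had 358, 181 and 170 in exosome, against 1.90, 2.38 and 1.90 in supernatant. Its probes at bases 1682 and 1684 overlap almost wholly and are no independent readings. VPS4B had 49.3, 326 and 1457 in exosome, against 1.94, 1.85 and 3.08 in supernatant. VTA1 had 269, 131 and 192 in exosome, against 2.04, 1.89 and 1.89 in supernatant. Their bounds before scaling were at least 24.6-fold for VPS4A, 31.6-fold for VPS4B and 20.9-fold for VTA1. After 75th percentile scaling all of these were under 1, so no direction can be given on that scale.

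ALIX (PDCD6IP), an adaptor that links cargo and syntenin to ESCRT-III, was among the dimmest members, while its protein is a common exosome marker. Its 4 probes had 7.55, 6.44, 33.3 and 87.4 in exosome, in genome order, against 5.80, 2.58, 3.51 and 1.86 in supernatant. The first 2 were detected on neither array and the last 2 in exosome only, with a bound of at least 5.97-fold before scaling. They are designed on an Ensembl or a predicted RefSeq transcript, as are 8 member probes in all, of which 5 were detected in exosome (62.5%), against 90.9% of the 77 designed on curated RefSeq transcripts. Over the array 44.1% of the probes on Ensembl or predicted RefSeq transcripts and 65.0% of those on curated ones were detected in exosome. PDCD6 (ALG-2), the calcium-binding partner of ALIX, was much brighter, with 755, 2043 and 2205 in exosome, against 1.83, 1.86 and 2.04 in supernatant, at least 166-fold before scaling and 3.52-fold after it. Signals of different probes cannot be set against each other as amounts of RNA, so this is no ranking of the transcripts.

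Syntenin (SDCBP), the scaffold that joins syndecan tails to ALIX, had 176, 1147 and 6415 ± 641 in exosome, in transcript order, against 2.47, 5.56 and 203 ± 20.3 in supernatant. The probe at base 1826, the third, was the only one detected in supernatant, and there its signal was second among the members to the CHMP1B probe. SDCBP was 1.49 above the median gene (4.99 unscaled), and after 75th percentile scaling its difference was -0.58. SDC4, a syndecan core protein, was detected in exosome only, with 133, 32.4 and 25.1 in exosome and 1.95, 1.87 and 1.95 in supernatant. SDC1, the main syndecan of epithelia, was detected on neither array, with 2.54 ± 2.53 and 11.1 ± 2.52 in exosome and 2.05 ± 2.04 and 7.34 ± 1.98 in supernatant. SDCBP2 (syntenin-2) was detected on neither array as well, with 10.6 ± 2.77 in exosome and 5.64 in supernatant. The higher SDC1 signal and that of SDCBP2 fell just under the lowest detected signal of 11.3, and the weaker detection flag counted 34 of the 35 members as present in exosome.

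The neutral sphingomyelinases stood at the other end of the list. SMPD3 (neutral sphingomyelinase 2), the enzyme whose ceramide drives ESCRT-independent budding, had 53.7 ± 6.05 in exosome and 62.2 ± 6.59 in supernatant at base 170. It stood at -3.71 relative to the median gene (-0.21 unscaled), and this was the only member probe detected on both arrays with more signal in supernatant, as 7.86% of all such probes had. The unscaled gap is smaller than the errors of the 2 signals together. Its probes at bases 765 and 2634 were detected on neither array, with 3.18 and 2.25 in exosome and 3.36 and 1.82 in supernatant, so the detection of SMPD3 rests on 1 probe of 3.

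SMPD2 (neutral sphingomyelinase 1) had 60.1 ± 6.42, 38.6 ± 4.97 and 153 ± 15.5 in exosome, against 14.5 ± 2.33, 2.63 ± 2.62 and 99.9 ± 10.2 in supernatant. The first and the last were detected on both arrays and differed by 2.05 and 0.62 unscaled. The gene stood at -2.16 relative to the median gene while its unscaled difference was 1.34, so its direction depends on the scale.

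ARRDC1, the arrestin-like adaptor that binds TSG101, had 138, 189 and 5926 ± 593 in exosome, against 9.67, 2.24 and 29.0 ± 3.90 in supernatant. Its first and last probes were detected on both arrays, with unscaled differences of 3.83 and 7.67. The mean was 2.25 above the median gene (5.75 unscaled, 0.19 after 75th percentile scaling).

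Among the 13 genes with a difference, 5 exceeded the median gene by 2-fold or more (VPS28, TSG101, ARRDC1, STAM2 and SDCBP), where 37.3% of all 3373 genes were. At least 2-fold below were SMPD2 and SMPD3, where 36.8% of all genes were, and 6 lay within 2-fold. The 6 include HGS, CHMP1A and IST1, whose brightest exosome probe was not detected in supernatant and is left out of the difference. Those probes had 4031, 1638 and 3319 in exosome, against 4.13, 2.30 and 2.34 in supernatant. For these genes the call covers only the probe detected on both arrays. The median of the 13 was 0.80, against 0 for all genes by construction. Before scaling 12 were at least 2-fold brighter in exosome (83.3% of all genes), and after 75th percentile scaling 2 were higher (18.1%) and 8 lower (63.5%). By these gene means only VPS28 and TSG101 were at least 2-fold to the exosome side on all 3 scales, and only SMPD3 was at or below 0 on all 3. The brightest probes of ARRDC1 and SNF8 taken alone also passed 2-fold on all 3, at 2.11 and 1.51 after 75th percentile scaling. Over probes, 19 were measured on both arrays with a median unscaled difference of 4.30, against 3.38 over all 5304. Of the 19, 6 were above the upper quartile of all probes (5.82) and 3 below the lower quartile (1.43).

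**Figure D3:**
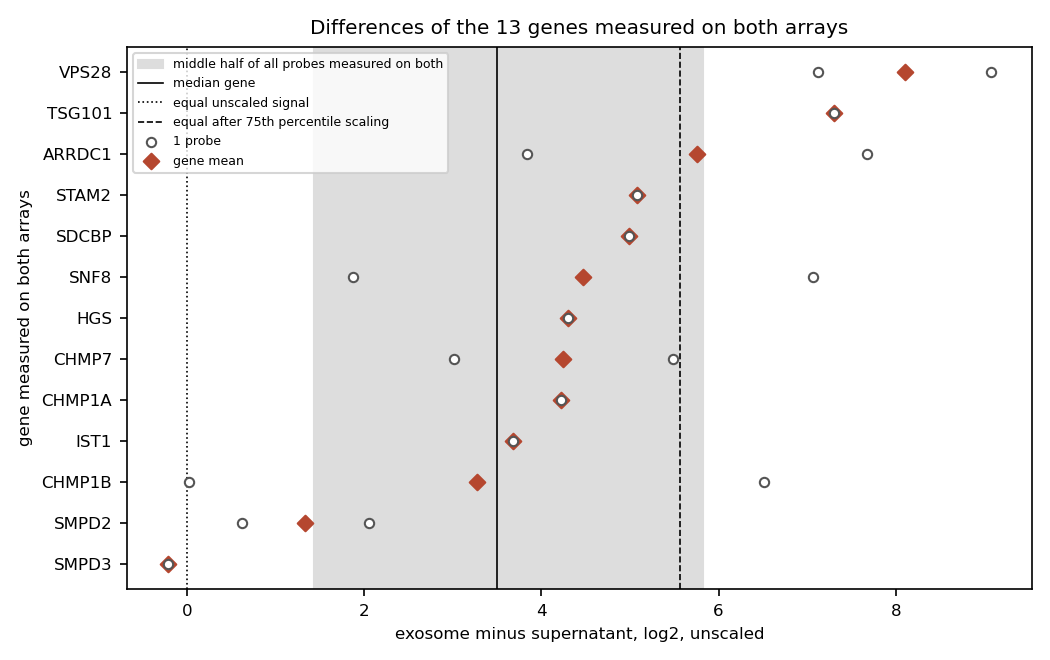
Exosome minus supernatant difference (log2, unscaled, horizontal axis) of the 13 genes measured on both arrays, with open circles for single probes and diamonds for the gene mean. The grey band is the range between the quartiles of all 5304 probes (1.43 to 5.82), and the lines mark the median gene (3.50), equal unscaled signal and equal signal after 75th percentile scaling (5.56). The gene means of VPS28 and TSG101 lie right of every line, that of SMPD3 left of every line, and the probes of SNF8 and CHMP1B lie far apart.

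The 19 genes detected in exosome only had unscaled bounds of at least 4.86-fold to at least 1054-fold, with a median of 32.0. All of the 19 passed 2-fold before scaling, whereas 5 did after 75th percentile scaling (CHMP2A, UBAP1, PDCD6, CHMP5 and CHMP6) and 12 had a bound under 1, which gives no direction. Relative to the median gene the log2 bounds ran from -1.22 (CHMP4C) to 6.54 (CHMP2A). They were below 0, and so without direction, for CHMP4C, SDC4, PDCD6IP and STAM. The share of all genes detected in exosome only that pass these limits was not computed, so the counts show nothing particular to the members.

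Within a gene the probe nearest the end of the transcript was usually the brightest in exosome. The count took genes with probes at least 60 bases apart on 1 transcript and a probe detected in exosome, which leaves out SDC1. Of 24 such members the last probe was the brightest in 18 (75%), against 70.2% of 6467 such genes on the array. The exceptions were CHMP1B, CHMP2A, SMPD3, SNF8, VPS4A and VTA1. In CHMP1B the brightest was the probe at base 1057 that shares sequence with other genes, and in CHMP2A the brightest probe overlapped the last. The last probe exceeded the first in 20 of the 24 (83.3%, against 80.4% over all genes), with a median last-minus-first difference of 2.75 in exosome (log2), against 2.55 over all genes. Over all 85 probes, the 28 that were the last of several on their transcript had a median exosome signal of 1430. Of these 28, 8 were detected in supernatant (28.6%), against 11 of the other 57 (19.3%). Over the whole array 1719 of 10225 last probes (16.8%) and 4012 of the other 33427 were detected in supernatant. The other probes include those that are alone on their transcript, so these detection shares mix position with differences between genes. Within genes of several probes exosome signal thus moved with probe position, and the part of position in each gene's difference was not tested.

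**Figure D4:**
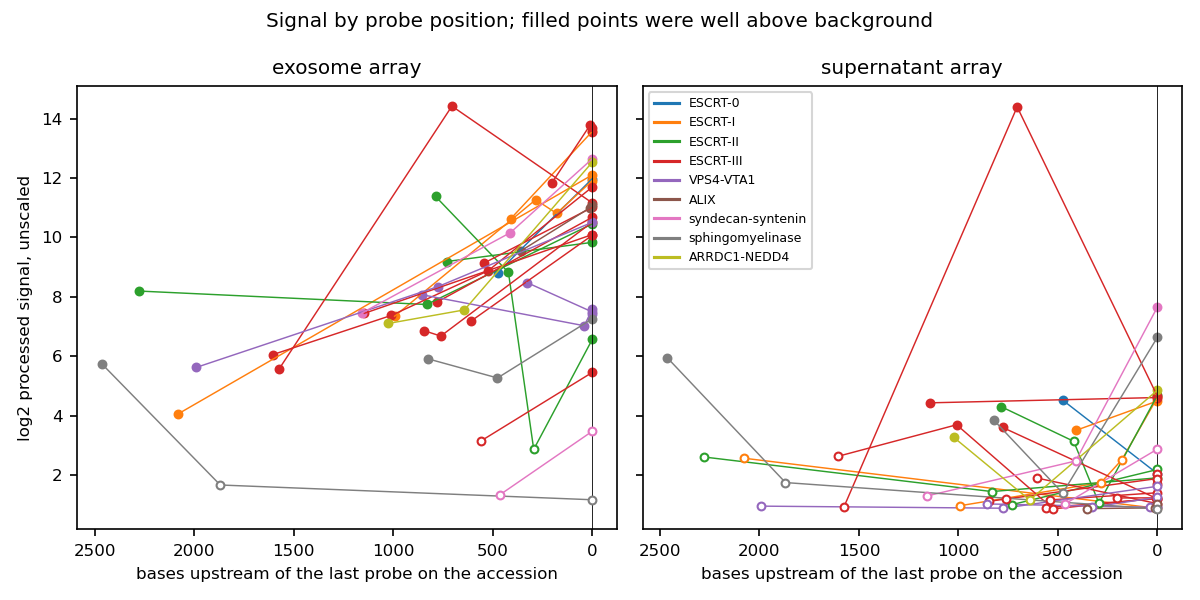
Log2 processed signal, unscaled, of each probe against its distance in bases upstream of the last probe on the same transcript, on the exosome array (left) and the supernatant array (right). Shown are genes with probes at least 60 bases apart: the 24 counted in the text and SDC1, which was detected on neither array. Lines join the probes of a gene, colours mark the complex and filled points mark detection. On the exosome array most lines climb towards the last probe, and in 20 of the 24 counted genes the last probe is above the first, while most supernatant points lie near the bottom.

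The letters AATAAA, the polyadenylation hexamer shown in capitals above, were searched for on the strand of the transcript in each 60-base probe. They were in 20 of the 85 member probes (23.5%) and in 9.35% of all probes of the array. The 20 had a median exosome signal of 2122, against a median of 170 for the 65 without. Over the array the medians were 146 with the letters and 24.6 without. In exosome 20 of the 20 and 55 of the 65 were detected, where 70.6% of all probes with the letters and 57.2% of those without were. In supernatant 5 of the 20 and 14 of the 65 were detected, where 22.7% and 12.1% of all probes were. On the opposite strand the same letters read TTTATT, which 4 member probes held (4.71%, against 3.46% of all probes), with a median of 203 in exosome and 0 detected in supernatant. Of all probes with TTTATT 14.5% were detected in supernatant, and 4 probes are too few to set against that share. A match in these letters is a description and no mapped polyadenylation site.

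Runs of 5 G (GGGGG) were in 5 member probes, of which 2 were detected in supernatant. Of all probes of the array, 37.7% with GGGGG and 12.4% without it were detected in supernatant. No member probe held CCCCC, its opposite strand. Probes whose 60 bases span at least 80 bases of the genome, as those across a spliced intron would, numbered 8 among the members. Of these 7 were detected in exosome, all but the PDCD6IP probe at base 2130, and the ARRDC1 probe at base 482 and the SMPD2 probe at base 785 also in supernatant. Over the array 52.2% of such probes were detected in exosome and 6.89% in supernatant, against 59.5% and 14.1% of the others.

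Genes of the same pathways outside the list were also mostly detected in exosome, and few were in supernatant. Of 47 further genes, which work as ESCRT accessory factors, ubiquitin ligases, alternative cargo adaptors, syndecan-pathway enzymes and exosome-release Rabs, 43 were on the array. In exosome 39 were detected, 33 of them there only, and 6 in supernatant, all 6 on both arrays, against the shares of all named genes given above. ARRDC2, a relative of ARRDC1, was 3.98 above the median gene and the only one at least 2-fold above it. WWP1, a NEDD4-family ligase, and SMPD1, the acid sphingomyelinase, were below it by differences of -2.12 and -1.94. TOM1, an alternative ESCRT-0, stood at 0.56, RAB27A, a Rab of exosome release, at 0.05 and PLD2, a phospholipase D of the syntenin route, at -0.78. The median of the 6 was -0.36. Detected on neither array were VPS37D, TOM1L2, SDC3 and RAB27B.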

How the data were processed

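RNA of 1 exosome pool and 1 supernatant pool was measured on 1-colour Agilent arrays. The intensity values and their errors were deposited by the authors as processed signals. The file headers name Agilent Feature Extraction 10.7.3.1 as the software and record background subtraction and detrending inside each array and no scaling across them. The scanner software's p-value of each spot against background, deposited in the same files, lies behind its detection flags. For the 85 member probes the authors' deposited log2 table matched the logarithm of these signals to within 1e-06, with column medians of 4.81 (exosome) and 1.32 (supernatant), which shows no scaling or centring. Further steps by the authors are not stated.

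Without control spots and the outlier spots (5 in exosome, 2 in supernatant), and with repeated spots averaged, there were 43652 probes, 33380 with 1 gene symbol and 10272 unnamed. Symbols came from a RefSeq gene reference where it held the probe's transcript, and otherwise from the array's own gene names. Names made of LOC and digits counted as unnamed. No member probe was saturated. Gene differences average the probes detected in both fractions, and a size of 2-fold was called. Python 3.11.15 with pandas 2.3.3 and numpy 2.4.6 was used, and R 4.3.3 with limma 3.58.1 for normexp (offset 50) and quantile normalization. The arithmetic of the gene difference was tested on simulated data in which every probe counted as detected on both arrays. That test does not cover the low supernatant signals or the disagreement between probes of a gene.

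The members, the pathway list, the markers and the alternatives were chosen with earlier results of these data known. Described probe by probe are members detected in supernatant, the 3 brightest and 3 dimmest in exosome, and those detected on neither array. Probe signals of the other members are given as well, beyond that rule. Pathway genes are named only where detected in supernatant or on neither array. No test was possible on single arrays.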

Additional observations from a re-analysis of the deposited data

How the results depend on the processing

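No paired analysis was possible because each fraction has 1 array. The number of members detected in exosome was 34 with the weaker detection flag, 28 when all probes of a gene were required and 31 with a stricter filter (4 times the lowest detected signal), against 32. The number detected in supernatant was less stable, at 25, 3 and 4 in that order, against 13. The count of genes at least 2-fold to the exosome side, 5 relative to the median gene, was 12 with no scaling, 11 with spike-in scaling, 2 with 75th percentile scaling and 1 with quantile normalization. With quantile normalization VPS28 stood at 1.49, and TSG101 fell to 0.56, under the 2-fold call. The count was 14 of 25 genes with the weaker flag, 26 of 35 with no filter on dim probes and 1 of 4 with the stricter filter. With no filter, undetected supernatant signals enter the difference. No share of all genes was computed for the flag and filter settings of this section, nor for spike-in scaling and quantile normalization. Counts under these settings therefore show nothing particular to the members. The median difference, 0.80, was 4.30 with no scaling, 2.03 with spike-in scaling, -1.26 with 75th percentile scaling, -1.76 with quantile normalization, 0.49 with normexp background correction, 1.68 with the weaker flag, 3.70 with no filter, -3.05 with the stricter filter and 1.67 with the brightest probe of each gene (10 genes). STAM2 turned to -0.48 and -1.38, and SDCBP to -0.58 and -1.71, with 75th percentile scaling and quantile normalization. In the same settings HGS turned to -1.26 and -2.06, SNF8 to -1.09 and -1.76, CHMP1A to -1.34 and -1.76, CHMP7 to -1.31 and -2.05, and IST1 to -1.88 and -2.20. ARRDC1 turned to -0.48 with quantile normalization, and SMPD2 to 1.34 and CHMP1B to 3.27 with no scaling. CHMP1B also turned above 0 with spike-in scaling, and to 0.28 with normexp, 0.82 with no filter and 3.01 without its shared probe, and with normexp CHMP1A turned to -0.22 and IST1 to -0.51. The turns under 75th percentile, spike-in and no scaling follow from the constant subtracted, and for the other settings the cause was not tested. Keeping outlier spots or using the deposited table moved no gene beyond the spot SD. Of 144 values of single genes in 12 settings, 53 stayed within that SD. Most of the 53 came from settings that could hardly move them. These were the deposited table (13), outlier spots kept (13) and the shared CHMP1B probe left out (12). Of the 144 values 23 changed sign, 6 of genes that were at least 2-fold from the median gene and 17 of genes within 2-fold of it. Signal over background limits the supernatant values: 15 of the 19 detected probes were below 30, and undetected genes have only a bound.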
